A study of Mus musculus and Homo sapiens with 32 samples.

Results

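The comparison covers 6 bulk RNA-seq libraries of sham-operated mouse kidney, 3 labelled Pcmt1 tKO and 3 labelled Pcmt1 fl/fl, out of 32 samples in the series. All 6 kidneys came from mice that had sham surgery and received DMSO, the vehicle. The members were taken by these labels and not by any measured value. The fl/fl label denotes alleles with an exon or exons flanked by loxP sites, and the labels neither spell out tKO nor give the Cre driver, the age, the sex or the strain. They also do not say whether the replicates came from separate animals, so the spread behind the p-values is that among these samples and may be of technical origin. The libraries belong to an obstruction experiment of 18 libraries, and its 3 Pcmt1 tKO and 3 Pcmt1 fl/fl kidneys with unilateral ureteral obstruction (UUO) and DMSO are used below as a further comparison of the same genotypes. The remaining 6 libraries, from UUO mice of both genotypes given LY2109761, a kinase inhibitor of TGF-β receptors, entered the estimate of the spread and are shown for single genes whose level is given across the experiment, with no comparison of their own.

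PCMT1 is a methyltransferase that starts the repair of isoaspartyl residues, a form of damage that asparagine and aspartate residues acquire as proteins age. Its methyl donor is S-adenosylmethionine. The title of the study links the enzyme to fibrosis through TGF-β1, its type II receptor and the Smads, a pathway in which the activated receptors phosphorylate SMAD2 and SMAD3, which enter the nucleus with SMAD4 and raise the transcription of matrix genes. The bulk of kidney tissue is proximal tubule, an epithelium that is rich in mitochondria and draws much of its energy from fatty acids.

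Pcmt1 itself (ENSMUSG00000019795, GRCm38 chromosome 10, 7629373 to 7681136) was examined first. It had 49.3, 22.7 and 24.3 CPM, that is counts scaled to a common library size, in tKO sham replicates 1, 2 and 3, against 48.9, 43.4 and 42.8 CPM in the fl/fl sham replicates. On the authors' FPKM scale, which corrects for transcript length, it had 5.23, 1.89 and 1.09 in the tKO libraries and 4.57, 3.98 and 4.34 in the fl/fl libraries. The library labelled tKO sham replicate 1 thus lay above all 3 fl/fl libraries on both scales, and it goes against its label. The log2 difference was −0.48 (SE 0.23, edgeR adjusted p = 0.182) with all 6 libraries and −0.94 (edgeR adjusted p = 0.00203) without that library. In a fit with tKO sham replicate 2 as the only tKO library the difference was −1.0 (edgeR adjusted p = 0.0164), and with replicate 3 as the only one −0.91 (edgeR adjusted p = 0.0156). These reads do not show which part of the gene was removed, since the counts cover the whole gene. The counts over all genes below are therefore given both with tKO sham replicate 1 and after its omission, and those of most gene lists with their range over the omissions of 1 sham library.

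**Figure D1:**
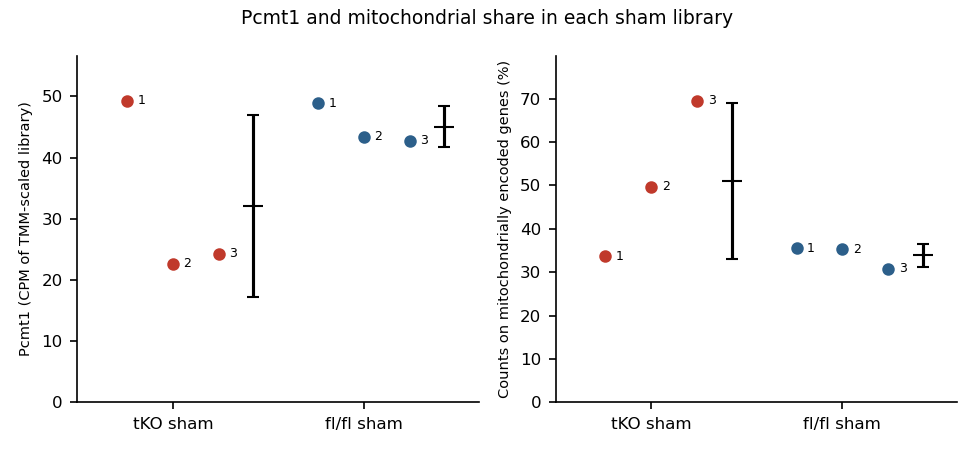
Pcmt1 level (left, CPM of the TMM-scaled library, linear axis) and the percentage of all counts on mitochondrially encoded genes (right) in each sham library, numbered by replicate, with tKO left of fl/fl; black bars give the mean and SD of 3 libraries. The library labelled tKO sham replicate 1, at 49.3 CPM and 33.7%, sits at the level of the fl/fl libraries in both panels.

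The tKO libraries also differed among themselves in how many of their counts came from the mitochondrial genome. That share was 33.7%, 49.7% and 69.5% in tKO sham replicates 1, 2 and 3, against 35.5%, 35.3% and 30.8% in the fl/fl replicates. Both tKO libraries with low Pcmt1 lay above every fl/fl library, and the library labelled tKO sham replicate 1 lay within the fl/fl range. The mean was 51.0 ± 17.9% in tKO and 33.9 ± 2.65% in fl/fl (SD, n = 3 each), and an exact two-sided permutation test gave p = 0.3, where 3 against 3 libraries cannot go below 0.1. Total counts ran from 14271363 to 16120082 in tKO and from 18800338 to 19565376 in fl/fl, and off the mitochondrial genome tKO sham replicate 3 kept 4347337 counts. Its TMM factor of 0.352 was the lowest of the 6 libraries, which otherwise ran up to 0.833. The part of this share in any result below was not tested. Values without tKO sham replicate 3 do not test it either. They keep tKO sham replicate 2 at 49.7%, and they drop a whole sample along with its share.

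The tissue matched its label. Defining kidney markers were abundant in every sham library, such as Slc34a1, the phosphate transporter of the proximal tubule, with 2477, 3042 and 3148 CPM in tKO and 1674, 3316 and 2922 CPM in fl/fl. Of other tissues, the adrenal markers Cyp11b1, Cyp11b2 and Cyp21a1 had no count in any of the 6 libraries, and Cyp11a1 had at most 4 counts. Markers of urothelium, fat and blood were counted, at levels that differed among the sham libraries, and are given below.

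Across the transcriptome edgeR called 2375 of 19256 tested genes at an adjusted p under 0.05, 12.3% of them, with 1109 higher (5.76%) and 1266 lower (6.57%) in tKO. Without the library labelled tKO sham replicate 1 it called 1877 higher (9.51%) and 2358 lower (11.9%) of 19742. Of the genes called with all libraries, 2227 were called in the same direction without that library, which is 93.8% of the first set and 52.6% of the second. The libraries of both groups did not overlap in 5825 tested genes (30.3%), among them 2266 of those called. These counts rest on a spread shared by all 18 libraries: with the 6 sham libraries fitted alone, edgeR called 3 genes higher and 3 lower of 16526 (0.0363%), while 4021 had an unadjusted p under 0.05. They also rest on single libraries, since 275 genes were higher and 210 lower without tKO sham replicate 2, 589 and 556 without tKO sham replicate 3, and 381 and 416 without fl/fl sham replicate 2. A set of 381 genes, 194 higher and 187 lower, was called with all libraries and in each of the 6 fits that left out 1 sham library, and the genes said below to hold in all omissions belong to it. Scaling by column totals instead left 70 genes higher and 222 lower, with a median over all genes of −0.25 in place of 0.03, so directions are relative to the bulk of expressed genes.

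The genes called without the library labelled tKO sham replicate 1 show where that library stands. It lay on the tKO side of the fl/fl mean in 88.1% of 4218 such genes and beyond all 3 fl/fl libraries in 73.3%, but nearer to the other tKO libraries than to fl/fl in only 34.8%. On a scale with the fl/fl mean at 0 and the mean of the other tKO libraries at 1, its median position was 0.37. For tKO sham replicate 2 the position was 1.03 over the 485 genes called without it, and for replicate 3 it was 0.90 over 1137 genes. For those libraries the point at 1 included the library labelled tKO sham replicate 1, and the gene sets differ. Their positions are thus not directly comparable with 0.37. The library with Pcmt1 at the fl/fl level thus lay between the groups over the 4218 genes. Those genes were chosen by the separation of the fl/fl libraries from tKO sham replicates 2 and 3. A further library of either group could fall between them, so its group is not read from this position.

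Immediate early genes, which are transcribed within minutes of a stimulus and largely encode transcription factors, were among the largest increases. Of 24 tested, 9 rose and none fell, where 5.76% of all genes rose, and their median log2 difference was 1.09 beside 0.03 for all genes. Nr4a1 (ENSMUSG00000023034, chromosome 15, 101254269 to 101274795), an orphan nuclear receptor gene, had 12.1, 104 and 177 CPM in tKO against 4.54, 5.47 and 4.43 CPM in fl/fl. Absence of overlap between the groups was a condition for naming the largest increases. Within the tKO group the library labelled tKO sham replicate 1 was the lowest. The log2 difference was 4.34 (SE 0.67, edgeR adjusted p = 0.00404), and no omission of 1 library ended the call (largest edgeR adjusted p = 0.023). Fos (ENSMUSG00000021250, chromosome 12, 85473890 to 85477273), a subunit of the AP-1 factor, had 5.81, 37.8 and 29.7 CPM in tKO and 1.77, 1.26 and 1.67 CPM in fl/fl. Its log2 difference was 3.94 (SE 0.62, edgeR adjusted p = 0.00419), and the library labelled tKO sham replicate 1 was again the lowest of the tKO group. Egr1, a zinc-finger factor induced by growth signals, had 24.9, 136 and 91.4 CPM in tKO and 8.87, 4.51 and 3.15 CPM in fl/fl (log2 3.93, SE 0.55, edgeR adjusted p = 0.00209).

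Nr4a2, another receptor of the Nr4a family, stood at log2 3.33 (SE 0.69, edgeR adjusted p = 0.0109), and Junb, an AP-1 partner that TGF-β also induces, at 1.88 (SE 0.30, edgeR adjusted p = 0.00441). Both kept their calls whichever sham library was left out. Without the library labelled tKO sham replicate 1 the immediate early list had 12 of 24 genes higher and a median of 1.42, and without tKO sham replicate 2 it had 5 higher and a median of 1.08. Over the list, the median difference from the fl/fl mean was 0.42, 1.07 and 1.33 in tKO sham replicates 1, 2 and 3. In UUO kidneys 1 gene of this list was higher in tKO than in fl/fl, beside 8.26% of all tested genes, and the median was 0.28.

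The start regions of Fos and Nr4a1 are shown because they were among the largest increases, and that of Irf1 because all 3 tKO libraries shared its increase. Each window holds 250 bases before and 50 after the RefSeq start site on GRCm38.p6, plus strand, at chr12:85473640-85473939, chr15:101266596-101266895 and chr11:53769764-53770063 (the first of the Irf1 start sites). Capitals mark TGACG, the core of the cyclic-AMP response element, or TTCNNNGAA, the GAS element bound by STAT factors, on either strand.
Fos: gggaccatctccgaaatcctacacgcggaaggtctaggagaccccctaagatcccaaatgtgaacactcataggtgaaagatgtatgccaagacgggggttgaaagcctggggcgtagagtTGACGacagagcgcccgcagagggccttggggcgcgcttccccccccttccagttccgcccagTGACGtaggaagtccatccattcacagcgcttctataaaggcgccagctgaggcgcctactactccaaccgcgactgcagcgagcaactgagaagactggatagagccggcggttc
Nr4a1: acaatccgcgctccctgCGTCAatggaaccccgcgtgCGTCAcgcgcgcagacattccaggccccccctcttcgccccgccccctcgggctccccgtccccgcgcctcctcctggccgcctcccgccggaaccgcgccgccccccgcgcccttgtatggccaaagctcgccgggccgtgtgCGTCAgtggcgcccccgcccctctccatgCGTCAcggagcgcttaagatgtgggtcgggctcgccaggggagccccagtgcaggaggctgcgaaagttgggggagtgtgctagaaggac
Irf1: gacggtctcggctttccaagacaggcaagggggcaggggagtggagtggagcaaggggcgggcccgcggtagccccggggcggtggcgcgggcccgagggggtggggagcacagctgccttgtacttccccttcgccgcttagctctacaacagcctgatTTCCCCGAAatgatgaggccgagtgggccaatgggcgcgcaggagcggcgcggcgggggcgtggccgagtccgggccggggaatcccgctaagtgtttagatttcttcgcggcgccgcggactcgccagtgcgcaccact
The Fos window held 2 matches and the Nr4a1 window 4 matches to TGACG, letters that occur in 20.8% of 32851 such windows. The whole element TGACGTCA (in 1.79% of windows, and overlapping the core), the CArG box (1.63%) and the core of the interferon-stimulated response element (3.44%) were in none of the 3 windows. TTCNNNGAA was in the Irf1 window and in 8.30% of all windows. The window of the second Irf1 start site held none of these elements. Sequence outside the windows was not searched. The core was searched after the whole element had given no match. A match is a description of the letters only.

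**Figure D2:**
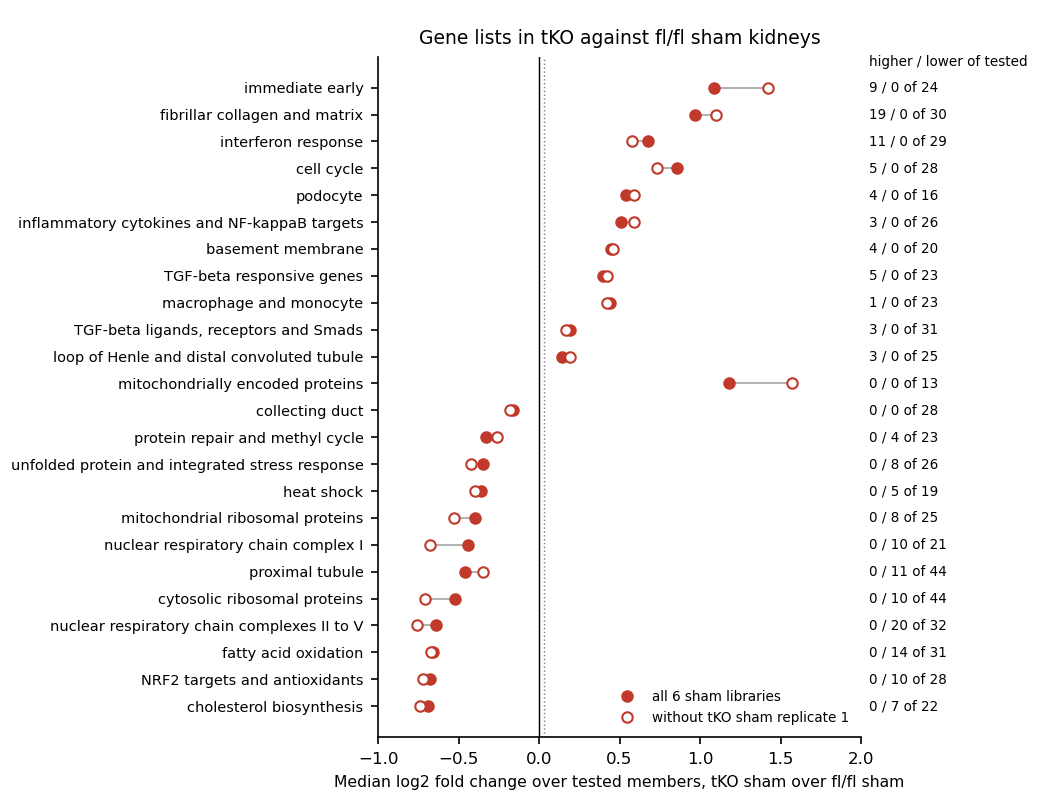
Median log2 fold change over the tested members of 24 gene lists, tKO sham over fl/fl sham, with all 6 libraries (filled) and without the library labelled tKO sham replicate 1 (open); the dotted line is the median of all genes, 0.03, and the numbers give members higher and lower of those tested. Matrix, immediate early and interferon genes lie to the right and nuclear mitochondrial and lipid genes to the left.

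Matrix genes were higher in the tKO kidneys, where 5.76% of all tested genes rose. Of 30 tested genes for fibrillar collagens and other matrix proteins 19 rose and none fell, with a median log2 difference of 0.97, and 9 of them were called in every fit that left out 1 library. Col15a1 (ENSMUSG00000028339, chromosome 4, 47208161 to 47313167), a collagen of vessel and interstitial basement membrane zones, had 51.5, 59.2 and 70.3 CPM in tKO against 11.6, 13.0 and 22.6 CPM in fl/fl. The log2 difference was 1.93 (SE 0.23, edgeR adjusted p = 0.00175), and the library labelled tKO sham replicate 1 was close to the other tKO libraries. Col1a1 (ENSMUSG00000001506, chromosome 11, 94936224 to 94953042), which encodes a type I collagen chain, had 56.2, 85.9 and 58.5 CPM in tKO and 21.3, 15.3 and 27.4 CPM in fl/fl (log2 1.65, SE 0.28, edgeR adjusted p = 0.00478). Col14a1, a fibril-associated collagen gene, was at 2.23 (SE 0.31, edgeR adjusted p = 0.00209), Sparc, a collagen-binding glycoprotein gene, at 0.98 (SE 0.14, edgeR adjusted p = 0.00212), and Col3a1 at 1.5 (SE 0.28, edgeR adjusted p = 0.00759). Each of these 5 genes kept its call in all omissions.

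The count of raised matrix genes ran from 10 without tKO sham replicate 2 to 20 without the library labelled tKO sham replicate 1. In UUO kidneys, from other libraries, 14 of the 30 were higher in tKO (median 0.77), beside 8.26% of all tested genes. Of 20 basement membrane genes 4 rose and none fell (median 0.45): Nid1, which links laminin to collagen IV, at log2 1.81 (SE 0.29, edgeR adjusted p = 0.00419), Lama2, a laminin chain, at 1.90 (SE 0.31, edgeR adjusted p = 0.00463), Col4a2 at 1.02 (SE 0.17, edgeR adjusted p = 0.00463) and Col4a5 at 0.50 (SE 0.16, edgeR adjusted p = 0.0468). The call of Col4a5 was lost whichever 1 sham library was left out (edgeR adjusted p up to 0.146), while the other calls held. Of all tested genes in sham kidneys, 5.76% rose and 6.57% fell. Of 21 myofibroblast and stromal genes (median 0.51) Pdgfrb, the pericyte and fibroblast receptor for PDGF, rose by 0.97 (SE 0.18, edgeR adjusted p = 0.00775) and Nt5e, a surface 5′-nucleotidase, stood at −0.87 (SE 0.27, edgeR adjusted p = 0.0447, up to 0.182 with 1 library left out). Acta2, smooth muscle actin, had 111, 198 and 106 CPM in tKO and 92.2, 39.4 and 62.5 CPM in fl/fl and did not pass (edgeR adjusted p = 0.0785).

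Neither Tgfb1 nor its receptor genes Tgfbr2 and Tgfbr1 passed with all 6 libraries in the edgeR fit, and the Smad genes 2, 3, 4 and 7 did not pass either. The ligand gene Tgfb1 had 18.8, 22.0 and 11.3 CPM in tKO and 16.5, 13.7 and 16.1 CPM in fl/fl, and the groups overlapped (log2 0.19, −0.03 with column totals and −0.01 without tKO sham replicate 2, SE 0.22, edgeR adjusted p = 0.609). The receptor gene Tgfbr2 had 108, 77.3 and 43.6 CPM in tKO and 77.7, 63.2 and 104 CPM in fl/fl (log2 −0.09, SE 0.26, edgeR adjusted p = 0.851). Smad3 had 51.5, 75.4 and 56.9 CPM in tKO and 47.6, 42.8 and 40.0 CPM in fl/fl. It did not overlap between the groups but did not pass with all libraries (log2 0.50, SE 0.17, edgeR adjusted p = 0.0671), and it passed without the library labelled tKO sham replicate 1 (log2 0.61, edgeR adjusted p = 0.0282). Tgfbr1 (0.03, SE 0.78), Smad2 (0.22, SE 0.50), Smad4 (−0.06, SE 0.14) and the inhibitory Smad7 (−0.05, SE 0.45) had edgeR adjusted p from 0.804 to 0.989. The standard errors of Tgfb1, Tgfbr1, Tgfbr2, Smad2, Smad4 and Smad7 are larger than their differences, so a change of that size was not detectable in either direction. They rest on a spread shared by all 18 libraries. Tgfbr1 had 50.8, 48.3 and 62.3 CPM in tKO sham and 51.8, 53.1 and 52.9 CPM in fl/fl sham kidneys. Its large SE goes with low values elsewhere, 6.46 CPM in tKO UUO replicate 3 and 6 CPM in fl/fl UUO replicate 3 with LY2109761.

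The 31 ligands, receptors and Smads had a median of 0.19, which was −0.08 with column totals. Beside 5.76% of all tested genes, 3 of these 31 rose and none fell. They were Ltbp4 and Ltbp3, which hold latent TGF-β in the matrix, at log2 0.87 (SE 0.18, edgeR adjusted p = 0.0117) and 0.83 (SE 0.21, edgeR adjusted p = 0.0204), and the activin receptor gene Acvr1b at 0.47 (SE 0.11, edgeR adjusted p = 0.0165). None of these 3 passed without tKO sham replicate 2 (edgeR adjusted p from 0.0588 to 0.0991), and 5 genes of the list rose and 1 fell without the library labelled tKO sham replicate 1. Of 23 genes that respond to TGF-β, 5 rose and none fell (median 0.40), and without the library labelled tKO sham replicate 1, 6 rose and 2 fell. Tgfbi, a secreted matrix protein, was at 1.34 (SE 0.22, edgeR adjusted p = 0.00469), Loxl2, a collagen cross-linking oxidase, at 1.45 (SE 0.26, edgeR adjusted p = 0.00661), and both held in every omission. Junb, given above, belongs to this list too. In UUO kidneys none of these 23 genes was higher and 1 was lower in tKO by edgeR, with a median of −0.07. Of all tested genes 8.26% were higher there and 9.65% lower.

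Interferon-responsive genes were higher in tKO, where 5.76% of all tested genes rose. Of 29 tested, 11 rose and none fell, with a median of 0.68. Irf1 (ENSMUSG00000018899, chromosome 11, 53770014 to 53778374), the factor whose start region is shown above, had 19.7, 25.4 and 29.3 CPM in tKO and 10.6, 9.46 and 7.64 CPM in fl/fl. Its log2 difference was 1.42 (SE 0.19, edgeR adjusted p = 0.00209). Oasl2 had 27.6, 49.4 and 51.0 CPM in tKO and 12.4, 12.5 and 17 CPM in fl/fl (log2 1.6, SE 0.25, edgeR adjusted p = 0.00375). Its relative Oasl1 was at 1.53 (SE 0.29, edgeR adjusted p = 0.00784), and the signalling factor Stat2 at 0.80 (SE 0.16, edgeR adjusted p = 0.00984). Irf1, Oasl1 and Oasl2 held in all omissions, while Stat2 was at an edgeR adjusted p of 0.0519 without tKO sham replicate 2. The count of raised genes ran from 3 without that library to 13 without the library labelled tKO sham replicate 1. Ifi208 (ENSMUSG00000066677, chromosome 1, 173673675 to 173698395), a gene of the interferon-inducible Ifi200 family chosen after its values were seen, had 2.38, 2.28 and 2.79 CPM in tKO and 0, 0.0739 and 0.0642 CPM in fl/fl. It was among the 6 genes that passed with the sham libraries fitted alone, and it was also higher in tKO UUO kidneys (log2 5.10, edgeR adjusted p = 1.3e-04).

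Of leukocyte and cytokine genes 7 rose in all, in 4 of the 5 lists, where 5.76% of all tested genes rose. The list medians were above the 0.03 of all genes. No rise of leukocytes is read from these few calls. Of 23 macrophage and monocyte genes 1 rose (median 0.44, with 0 to 4 rising over the omissions), the IgG receptor gene Fcgr1, at 0.96 (SE 0.22, edgeR adjusted p = 0.0178), which did not pass without the library labelled tKO sham replicate 1 (edgeR adjusted p = 0.0728) or without fl/fl sham replicate 1 (0.0821). None of 7 genes of MHC class II presentation passed in the edgeR fit, at an unadjusted p under 0.05 or with DESeq2 (median 0.10, −0.14 with column totals, and −0.05 in the fit that left out the library labelled tKO sham replicate 1). Of 23 lymphocyte genes (T, NK and B cells) 2 passed, both higher (median 0.63), namely Trbc1, a T cell receptor constant region, at 0.968, 1.97 and 1.39 CPM in tKO and 0.213, 0.665 and 0.578 CPM in fl/fl, and Ighm, the IgM heavy chain, at 11.5, 25.4 and 23.1 CPM in tKO and 9.30, 6.87 and 6.42 CPM in fl/fl. The list had 3 genes higher without the library labelled tKO sham replicate 1. Trbc1 and Ighm fell short without tKO sham replicate 2, without tKO sham replicate 3 and without any 1 fl/fl library (edgeR adjusted p up to 0.178). Of 8 neutrophil genes Csf3r, the receptor for granulocyte colony-stimulating factor, rose by 1.70 (SE 0.40, edgeR adjusted p = 0.0166), a call lost without tKO sham replicate 2 (0.0714), fl/fl sham replicate 2 or fl/fl sham replicate 3. The list median was 1.02, and the granule gene Camp and the gene Retnlg had no count in any sham library. Of 26 cytokine and NF-κB genes 3 rose, 1 to 5 over the omissions, and all 26 were above 0 (median 0.51): Il1b at 1.87 (SE 0.38, edgeR adjusted p = 0.0101, and 0.0558 without tKO sham replicate 2), Birc3 at 0.53 (SE 0.16, edgeR adjusted p = 0.0469, up to 0.15 with 1 library left out) and Cxcl1. Cxcl1, a neutrophil chemokine, had 0.744, 1.76 and 36.4 CPM in tKO and 1.14, 0.961 and 0.771 CPM in fl/fl, so its call (edgeR adjusted p = 0.0307) rests on tKO sham replicate 3 and was lost without it (edgeR adjusted p = 0.709), and also without any 1 fl/fl library.

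Cell cycle genes were higher in part. Of 28 tested, 5 rose and none fell, with a median of 0.86, where 5.76% of all tested genes rose and 6.57% fell. The proliferation marker Mki67 had 14.5, 14.7 and 28.3 CPM in tKO and 3.76, 2.96 and 8.80 CPM in fl/fl (log2 1.86, SE 0.39, edgeR adjusted p = 0.0112), and it held in all omissions. The count of raised genes ran from 1 without fl/fl sham replicate 2 to 8 without fl/fl sham replicate 3. Of 24 p53 targets 3 rose (median 0.20, −0.07 with column totals), among them Btg2, an antiproliferative gene, at 38.4, 110 and 81.8 CPM in tKO and 25.8, 19.4 and 31.3 CPM in fl/fl (log2 1.58, SE 0.34, edgeR adjusted p = 0.0116), whose call was lost without tKO sham replicate 2 (0.0642) or fl/fl sham replicate 2. The count of raised p53 targets was 0 to 3 over the omissions, and 1 fell without the library labelled tKO sham replicate 1. Of 27 tubular injury genes Krt20, Cd44 and Anxa3 rose and Fga fell (median 0.29, −0.01 with column totals). Krt20, a keratin, had 0.447, 5.71 and 0.199 CPM in tKO and 0.071, 0.148 and 0.45 CPM in fl/fl, so the groups overlapped, and its log2 difference of 3.24 (edgeR adjusted p = 0.035) was 0.67 without tKO sham replicate 2 (edgeR adjusted p = 0.666). Cd44, a hyaluronan receptor gene, was also highest in that library (4.24, 11.7 and 3.58 CPM in tKO and 2.20, 1.92 and 3.02 CPM in fl/fl), and its difference of 1.47 was 0.73 without it (edgeR adjusted p = 0.173). Fga did not pass without that library (edgeR adjusted p = 0.0678), and Anxa3 without fl/fl sham replicate 2 (edgeR adjusted p = 0.0589). The injury marker Havcr1 had 4.47, 2.59 and 4.98 CPM in tKO and 3.19, 1.70 and 2.06 CPM in fl/fl (edgeR adjusted p = 0.091). The count of raised injury genes was 0 to 4 over the omissions.

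Of the genes on the mitochondrial genome, 3 tRNAs passed with all 6 libraries, where 5.76% of all tested genes rose. The 13 protein genes there had a median log2 difference of 1.18 (0.57 with column totals), and none passed with all 6 libraries in the edgeR fit, while 12 had an unadjusted p under 0.05 and DESeq2 called 11. mt-Nd1, a complex I subunit, had 31048, 58580 and 150662 CPM in tKO and 31313, 32484 and 27598 CPM in fl/fl (log2 1.39, SE 0.44, edgeR adjusted p = 0.051). The library labelled tKO sham replicate 1 lay in the fl/fl range, and the other tKO libraries lay above it. Without that library 12 of the 13 rose, with a median of 1.57, and without tKO sham replicate 3 the median was 0.33 with none called by edgeR and none at an unadjusted p under 0.05. The mitochondrial ribosomal RNAs mt-Rnr1 and mt-Rnr2 did not pass by edgeR or DESeq2 (median 0.57, −0.25 without tKO sham replicate 3 and −0.04 with column totals), and of 14 tested mitochondrial tRNAs 3 rose, with mt-Tw at 7.97, 21.4 and 49.8 CPM in tKO and 7.81, 6.35 and 6.36 CPM in fl/fl (edgeR adjusted p = 0.0173). None of the 14 passed by edgeR without tKO sham replicate 3, fl/fl sham replicate 2 or fl/fl sham replicate 3, with 3 to 6 at an unadjusted p under 0.05.

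Nuclear genes of the respiratory chain were lower. Of 21 complex I genes 10 fell and none rose (median −0.44), and of 32 genes of complexes II to V 20 fell and none rose (median −0.64), where 6.57% of all genes fell. Every tested gene of both lists had a log2 difference below 0. Atp5f1a, the α subunit of ATP synthase, had 895, 594 and 658 CPM in tKO and 1297, 1245 and 1351 CPM in fl/fl (log2 −0.86, SE 0.17, edgeR adjusted p = 0.00895). Ndufv1, a core subunit of complex I, had 189, 151 and 141 CPM in tKO and 317, 298 and 245 CPM in fl/fl (log2 −0.84, SE 0.16, edgeR adjusted p = 0.00768). In both genes all tKO libraries were below all fl/fl libraries, with the library labelled tKO sham replicate 1 the highest of the 3. Sdhc of complex II was at −0.66 (SE 0.11, edgeR adjusted p = 0.00463) and Uqcrc2 of complex III at −0.72 (SE 0.14, edgeR adjusted p = 0.00782). These 4 genes held in all omissions, but the counts of genes that fell were 2 in complex I and 3 in complexes II to V without tKO sham replicate 2, against 14 and 23 without the library labelled tKO sham replicate 1.

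The share of counts on the mitochondrial genome was 33.7%, 49.7% and 69.5% in tKO sham replicates 1, 2 and 3. In the same order, the median difference from the fl/fl mean was −0.32, −0.68 and −0.58 over complex I. Over complexes II to V it was −0.39, −0.75 and −0.76. The part of the share in these calls was not tested, and it was not adjusted for in them. With all mitochondrially encoded genes removed from the table before scaling, edgeR called 1132 genes higher and 1192 lower over the transcriptome. In UUO kidneys, 5 complex I genes and 8 of complexes II to V were lower in tKO, with medians of −0.16 and −0.19. Of all tested genes 9.65% were lower there.

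Genes of mitochondrial translation and quality control were lower in part, where 6.57% of all tested genes fell. Of 25 mitochondrial ribosomal protein genes 8 fell and none rose (median −0.40), such as Mrpl18 at −0.65 (SE 0.12, edgeR adjusted p = 0.00652), and this count ran from 1 to 16 over the omissions. Of 24 genes of mitochondrial transcription and RNA maturation 3 fell and 12 were above 0 (median 0.06, −0.21 with column totals), while 5 rose and 5 fell without the library labelled tKO sham replicate 1. Among the 3 was Fastkd5, which processes mitochondrial transcripts, at 5.81, 6.02 and 5.18 CPM in tKO and 10.4, 14.2 and 10.9 CPM in fl/fl (log2 −1.06, SE 0.19, edgeR adjusted p = 0.00662). Tfam, the factor that packages mitochondrial DNA, had 38.0, 30.5 and 33.6 CPM in tKO and 41.6, 50.9 and 46.6 CPM in fl/fl (log2 −0.44, SE 0.14, edgeR adjusted p = 0.047, up to 0.181 with 1 library left out). Of 25 genes of mitochondrial stress and quality control 8 fell and 1 rose, the fission gene Dnm1l (median −0.33), and over the omissions 4 to 11 fell and 0 to 3 rose. The matrix chaperonin gene Hspd1 had 244, 127 and 157 CPM in tKO and 343, 405 and 416 CPM in fl/fl (log2 −1.14, SE 0.20, edgeR adjusted p = 0.00582), and its partner Hspe1 was at −1.13 (SE 0.21, edgeR adjusted p = 0.00783). Hspa9, the matrix Hsp70 gene, was at −0.93 (SE 0.17, edgeR adjusted p = 0.00708) and Vdac1, the outer membrane channel, at −0.77 (SE 0.13, edgeR adjusted p = 0.00463), and all 4 held in every omission. Hspd1 and Hspe1 overlap on the genome, so reads there may have been counted for either gene.

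Genes of fatty acid oxidation were lower, where 6.57% of all tested genes fell. Of 31 tested, 14 fell and none rose, with a median of −0.66. Echs1 (ENSMUSG00000025465, chromosome 7, 140105710 to 140116476), which hydrates short-chain enoyl-CoA, had 137, 83.5 and 76.7 CPM in tKO and 223, 208 and 212 CPM in fl/fl (log2 −1.11, SE 0.19, edgeR adjusted p = 0.00469). Acadm, the medium-chain acyl-CoA dehydrogenase, had 526, 421 and 571 CPM in tKO and 888, 893 and 870 CPM in fl/fl (log2 −0.80, SE 0.17, edgeR adjusted p = 0.0107). Etfa, an electron carrier that accepts from such dehydrogenases, was at −1.05 (SE 0.21, edgeR adjusted p = 0.0101). Echs1 held in all omissions, while Acadm and Etfa did not pass without tKO sham replicate 2 (edgeR adjusted p = 0.0564 and 0.0519). Only 1 gene of the list passed without that library, against 17 without the library labelled tKO sham replicate 1. In UUO kidneys 14 of the 31 genes were lower in tKO (median −0.74), beside 9.65% of all tested genes.

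Proximal tubule genes were lower in part, where 6.57% of all tested genes fell. Of 44 tested, 11 fell and none rose, and the median was −0.46, but 12 of the 44 had differences above 0. Slc3a1 (ENSMUSG00000024131, chromosome 17, 85028376 to 85064236), the heavy subunit of the cystine transporter, had 331, 283 and 277 CPM in tKO and 655, 555 and 469 CPM in fl/fl (log2 −0.92, SE 0.15, edgeR adjusted p = 0.00427). Napsa, an aspartic protease of the proximal tubule, had 2002, 1550 and 1443 CPM in tKO and 6041, 3948 and 3104 CPM in fl/fl (log2 −1.39, SE 0.24, edgeR adjusted p = 0.00581). Both held in all omissions. The endocytic receptor gene Cubn was at −0.81 (SE 0.18, edgeR adjusted p = 0.0141, and 0.0566 without fl/fl sham replicate 2), and its partner Lrp2 at −0.86 (SE 0.24, edgeR adjusted p = 0.0295), a call that was lost without the library labelled tKO sham replicate 1 (edgeR adjusted p = 0.0603), without tKO sham replicate 2 (0.134) and without fl/fl sham replicate 2 or 3. Slc34a1 did not pass (edgeR adjusted p = 0.772). The count of lowered genes ran from 3 to 12 over the omissions. The groups did not overlap in 14 of the 44, close to the 30.3% of all genes. Over the list, the median difference from the fl/fl mean was −0.59, −0.49 and −0.24 in tKO sham replicates 1, 2 and 3 and −0.47, 0.21 and 0.22 in the fl/fl replicates, so fl/fl sham replicate 1 lay at the level of the tKO libraries. The summed level of the list was 37674, 34518 and 52236 CPM in tKO and 45542, 57805 and 51470 CPM in fl/fl, and the groups overlapped. In UUO kidneys 19 of these 44 genes were lower in tKO (median −1.04), beside 9.65% of all tested genes.

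Podocyte genes and some genes of later segments were higher. Among 25 markers of the Henle loop and the distal convoluted tubule 3 rose and none fell (median 0.14, −0.23 with column totals), while none passed by edgeR without tKO sham replicate 2 (9 at an unadjusted p under 0.05), and 5 rose and 3 fell without the library labelled tKO sham replicate 1. Slc12a3, the thiazide-sensitive cotransporter of the distal convoluted tubule, had 775, 1052 and 1073 CPM in tKO and 532, 579 and 487 CPM in fl/fl (log2 0.86, SE 0.18, edgeR adjusted p = 0.0122, and 0.0547 without tKO sham replicate 2). None of 28 collecting duct genes passed in the edgeR fit with all libraries (median −0.16, with 4 at an unadjusted p under 0.05 and 1 called by DESeq2), while 1 rose and 2 fell without the library labelled tKO sham replicate 1. Of 16 podocyte genes 4 rose, where 5.76% of all genes did, and 15 were above 0 (median 0.54). Nphs1, which encodes nephrin of the slit diaphragm, had 30.9, 20.9 and 18.7 CPM in tKO and 8.94, 11.2 and 13.4 CPM in fl/fl (log2 1.08, SE 0.22, edgeR adjusted p = 0.0104) and held in all omissions, while the count of raised podocyte genes was 1 to 4. Of 20 endothelial genes 1 fell, Plvap, at −0.65 (SE 0.17, edgeR adjusted p = 0.0254, up to 0.0872 with 1 library left out), and the list median was 0.20 (−0.08 with column totals), while 2 rose without the library labelled tKO sham replicate 1. In such whole-kidney RNA, fewer cells of a type and less RNA per cell cannot be told apart. Several genes named in the text overlap another gene on the genome (Pcmt1 and Nup43, Junb and Prdx2, Plvap and Gtpbp3, Slc34a1 and Pfn3, Dnaja1 and Smu1, Cyp51 and Akap9, Rarres2 and Lrrc61, Col4a2 and Col4a1, Atp5f1a and Haus1, Echs1 and Paox, Slc3a1 and Prepl, Fastkd5 and Ubox5, Mrpl18 and Tcp1), and whether the counting used strand is not given in the sources used here, so their values are uncertain to that extent.

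**Figure D3:**
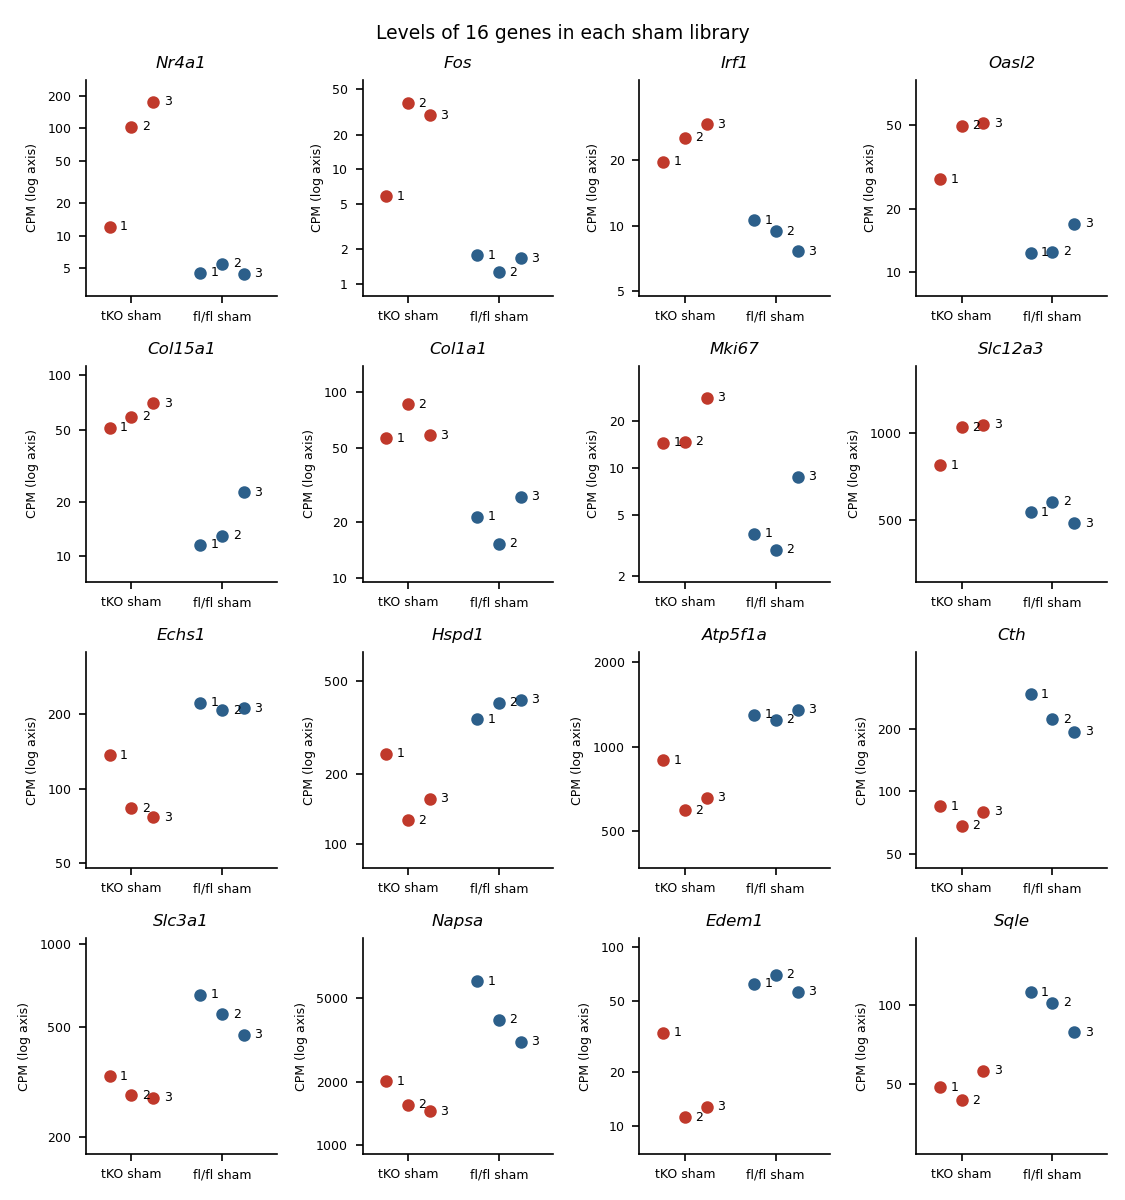
CPM on a log axis of 16 genes in each sham library, numbered by replicate, with tKO left of fl/fl. All 16 were picked from the called genes. The groups do not overlap in 2266 of the 2375 called genes and in 30.3% of all tested genes, so the separation seen here follows from the choice. Nr4a1 and Fos are lowest within tKO in replicate 1 (12.1 and 5.81 CPM), and Cth and Slc3a1 have all 3 tKO libraries close together.

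The genes around the reaction of PCMT1 were examined as a list of protein repair and the methyl cycle. Of 23 tested, 4 fell and none rose (median −0.33), where 6.57% of all tested genes fell. The count of lowered genes was 1 to 6 over the omissions. Cth (ENSMUSG00000028179, chromosome 3, 157894248 to 157925077), cystathionine γ-lyase, which makes cysteine from the homocysteine branch, had 84.6, 68.2 and 79.8 CPM in tKO and 296, 224 and 195 CPM in fl/fl (log2 −1.62, SE 0.22, edgeR adjusted p = 0.00209). It held in all omissions and was lower in tKO UUO kidneys too (log2 −1.64, edgeR adjusted p = 9.3e-04). Ahcy, which removes the S-adenosylhomocysteine that methyltransferases release, had 138, 127 and 151 CPM in tKO and 303, 252 and 209 CPM in fl/fl (log2 −0.88, SE 0.18, edgeR adjusted p = 0.011). Msrb1, a methionine sulfoxide reductase, was at −0.97 (SE 0.20, edgeR adjusted p = 0.0101), and Gamt, which methylates guanidinoacetate to creatine, at −0.63 (SE 0.18, edgeR adjusted p = 0.0324). Ahcy and Msrb1 did not pass without tKO sham replicate 2 (edgeR adjusted p = 0.0546 and 0.0537), and Gamt not with any 1 sham library left out (up to 0.097). The related genes Pcmtd1 and Pcmtd2, chosen after their values were seen, were at 0.35 (SE 0.28) and 0.05 (SE 0.78) and did not pass (edgeR adjusted p = 0.423 and 0.976).

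Genes of cytosolic protein synthesis and folding were lower in part, where 6.57% of all tested genes fell. Of 44 ribosomal protein genes 10 fell and none rose (median −0.52), and the count reached 31 when the library labelled tKO sham replicate 1 was left out but was 0 without tKO sham replicate 2, 0 without tKO sham replicate 3 and 0 without fl/fl sham replicate 3 by edgeR, with 17 to 31 at an unadjusted p under 0.05 in these 3 fits. Rps2 had 256, 177 and 163 CPM in tKO and 377, 322 and 431 CPM in fl/fl (log2 −0.92, SE 0.22, edgeR adjusted p = 0.0176, and 0.0859 without tKO sham replicate 2). In UUO kidneys 8 of these genes were higher and none lower in tKO (median 0.30). Of all tested genes 8.26% were higher there and 9.65% lower. Reads of ribosomal protein genes can be split with their pseudogenes, so single values are uncertain. Of 26 genes of the unfolded protein and integrated stress response 8 fell and none rose (median −0.35), while 1 fell without tKO sham replicate 2, and 8 fell and 1 rose without the library labelled tKO sham replicate 1. Edem1, which directs misfolded glycoproteins to degradation, had 33.0, 11.1 and 12.7 CPM in tKO and 62.1, 69.7 and 56.1 CPM in fl/fl (log2 −1.71, SE 0.31, edgeR adjusted p = 0.00661) and held in all omissions. Xbp1, a factor of that response, was at −1.28 (SE 0.29, edgeR adjusted p = 0.0152, and 0.0756 without tKO sham replicate 2). Of 19 heat shock genes 5 fell (median −0.36), with the Hsp70 co-chaperone genes Dnaja1 at −0.87 (SE 0.15, edgeR adjusted p = 0.00472) and Dnajb1 at −0.64 (SE 0.13, edgeR adjusted p = 0.00895), and the count was 4 or 5 in every omission.

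Genes of cholesterol synthesis, of the NRF2 response and of glycolysis were lower in part, where 6.57% of all tested genes fell. Of 22 cholesterol biosynthesis genes 7 fell and none rose (median −0.69), and all 22 had differences below 0. Sqle, squalene epoxidase, had 48.9, 43.6 and 56.3 CPM in tKO and 112, 102 and 78.9 CPM in fl/fl (log2 −0.98, SE 0.18, edgeR adjusted p = 0.00759). Cyp51 was at −0.98 (SE 0.19, edgeR adjusted p = 0.00895) and Sc5d at −0.75 (SE 0.12, edgeR adjusted p = 0.00463). These 3 genes held in all omissions, and 5 to 10 genes of the list fell in each. Of 28 NRF2 targets and antioxidants 10 fell (median −0.68), a count that was 3 without tKO sham replicate 2 or fl/fl sham replicate 3 but 14 without the library labelled tKO sham replicate 1. In that list 1 gene rose without tKO sham replicate 3. Gsta2, a glutathione transferase gene among the 10, had 57.0, 88.5 and 74.3 CPM in tKO and 129, 191 and 235 CPM in fl/fl (log2 −1.34, SE 0.27, edgeR adjusted p = 0.00986). Gsta2 and Gsta1 are near copies of each other, so their reads may be shared. Of 26 genes of glycolysis and hypoxia 5 fell (median −0.15), and none passed without tKO sham replicate 2 in the edgeR fit, where 9 had an unadjusted p under 0.05, against 7 genes lower without the library labelled tKO sham replicate 1. Of 20 clock genes 2 fell (median −0.31, and 1 to 3 over the omissions), with Hlf at −1.0 (SE 0.19, edgeR adjusted p = 0.00782).

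Markers of neighbouring tissue moved with the groups in part, where 5.76% of all tested genes rose. Of 10 urothelium genes tested 4 rose (median 1.65), and the summed level of the list was 500, 543 and 174 CPM in tKO against 171, 86.6 and 273 CPM in fl/fl, so the groups overlapped. Upk1b, a uroplakin gene and one of the 12 largest increases, had 34.1, 46.5 and 14.9 CPM in tKO and 7.17, 4.29 and 8.54 CPM in fl/fl (log2 2.26, SE 0.59, edgeR adjusted p = 0.0249). It did not pass without tKO sham replicate 2 (edgeR adjusted p = 0.109). No urothelium gene passed without tKO sham replicate 2, fl/fl sham replicate 1 or fl/fl sham replicate 2, and 1 passed without fl/fl sham replicate 3, with 5 to 7 at an unadjusted p under 0.05 in these edgeR fits. Other large increases followed the same libraries: Sprr1a, an envelope gene of stratified epithelia, had 67.0, 152 and 30.7 CPM in tKO and 17.8, 8.42 and 22.0 CPM in fl/fl, and Aldh3a1, an aldehyde dehydrogenase gene, had 4.02, 26.5 and 1.19 CPM in tKO and 0.71, 0.517 and 0.578 CPM in fl/fl. Both were highest in tKO sham replicate 2 and lost their calls without it (edgeR adjusted p = 0.0729 for Sprr1a and 0.135 for Aldh3a1) and without fl/fl sham replicate 2. The part of urothelium in these increases was not tested.

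Lists for other tissues and for sex gave at most 2 calls each, where 5.76% of all tested genes rose and 6.57% fell. Of 11 adipose genes 1 rose and 1 fell (median 0.09, −0.19 with column totals), and the defining gene Adipoq had 2.16, 4.88 and 3.38 CPM in tKO and 10, 0.369 and 0.45 CPM in fl/fl. Ucp1, the uncoupling protein of brown fat, had 2.08, 6.33 and 7.17 CPM in tKO and 0.923, 0.813 and 0.578 CPM in fl/fl (log2 2.71, SE 0.56, edgeR adjusted p = 0.0107, and 0.0516 without tKO sham replicate 2). None of 3 tested adrenal genes (median 0) and none of 6 erythroid genes (median 0.86) passed in the edgeR fit, at an unadjusted p under 0.05 or with DESeq2. Hba-a1, an α-globin gene, had 517, 329 and 1783 CPM in tKO and 418, 266 and 713 CPM in fl/fl. Xist had at most 8 counts in any sham library, and of the Y-linked genes Eif2s3y rose by 0.81 (SE 0.23, edgeR adjusted p = 0.0351, up to 0.149 with 1 library left out), while the list of 4 had a median of −0.01. Of 18 genes that differ between male and female kidneys 2 fell (median −0.43), among them Slc7a12, an amino acid transporter gene, at 0.744, 2.80 and 0.796 CPM in tKO and 32.4, 18 and 8.67 CPM in fl/fl (log2 −3.73, SE 0.61, edgeR adjusted p = 0.00463). Of 10 nuclear-retained and 7SL or 7SK RNAs Kcnq1ot1 rose by 1.52 (SE 0.28, edgeR adjusted p = 0.00662). It is antisense to Kcnq1 and overlaps it, so its value may hold reads of that gene.

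Among the largest decreases, several genes showed wide steps between the groups. These genes were named only where the groups did not overlap, as in 30.3% of all tested genes. Slc30a7 (ENSMUSG00000054414, chromosome 3, 115938973 to 116007406), a zinc transporter of the Golgi, had 5.58, 4.36 and 5.57 CPM in tKO and 24.6, 31.8 and 26.0 CPM in fl/fl. Its log2 difference of −2.41 (SE 0.17, edgeR adjusted p = 4.0e-06) held in all omissions (largest edgeR adjusted p = 9.7e-05), and the other 12 libraries of the experiment had 31.3 to 58.2 CPM. The library labelled tKO sham replicate 1 stood with the other tKO libraries here. Ptgr2, a prostaglandin reductase gene, had 26.1, 16.6 and 18.7 CPM in tKO and 111, 127 and 120 CPM in fl/fl (log2 −2.54, SE 0.46, edgeR adjusted p = 0.00652), and Lrrc8d, a subunit of volume-regulated anion channels, had 1.56, 2.70 and 3.19 CPM in tKO and 33.2, 46.9 and 19.5 CPM in fl/fl (log2 −3.80, SE 0.76, edgeR adjusted p = 0.00949). Slc10a2, the apical bile acid transporter, had 32.5, 30.9 and 31.3 CPM in tKO and 159, 98.3 and 77.8 CPM in fl/fl (log2 −1.82, SE 0.25, edgeR adjusted p = 0.00209). All 4 held in every omission. Slc30a7 and Ptgr2 also passed with the 6 sham libraries fitted alone (edgeR adjusted p = 0.0216 and 0.016). The decreases of Serpina1a, Serpina1b and Serpina1c (log2 −1.85, −2.56 and −2.0), Gstp2 (−1.89) and Ugt1a10 (−2.42) are uncertain as single genes, since each belongs to a family of near-identical copies or shared exons.

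Other steps also occurred within groups of equal genotype and treatment. Traf3, an adaptor of TNF receptor and interferon signalling, had 30.9, 35.3 and 33.2 CPM in tKO sham and 3.69, 4.21 and 3.47 CPM in fl/fl sham (log2 3.13, SE 0.79, edgeR adjusted p = 0.0219), yet it had 2.40, 4.10 and 3.55 CPM in tKO UUO and 18.5, 6.11 and 31.0 CPM in fl/fl UUO kidneys, the opposite direction (log2 −2.47, edgeR adjusted p = 0.0367). Within the fl/fl UUO group with LY2109761 it had 3.56, 46.2 and 4.55 CPM. Its sham call was lost without tKO sham replicate 2 (edgeR adjusted p = 0.0718) and without any 1 fl/fl sham library (up to 0.0748). The spread in these fits includes the UUO libraries. With the 6 sham libraries fitted alone Traf3 passed (edgeR adjusted p = 0.00245). Ablim1, an actin-binding protein gene, had 9.98, 12.3 and 20.7 CPM in tKO sham and 129, 111 and 126 CPM in fl/fl sham, and 73.8, 3.45 and 5.60 CPM within tKO UUO. It did not pass when all 18 libraries shared the spread (edgeR adjusted p = 0.0633), although it was 1 of the 6 genes called with the sham libraries alone. A range of at least 8-fold within any of the 6 groups occurred in 609 tested genes (3.16%) and in 16 of the called genes (0.674%).

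**Figure D4:**
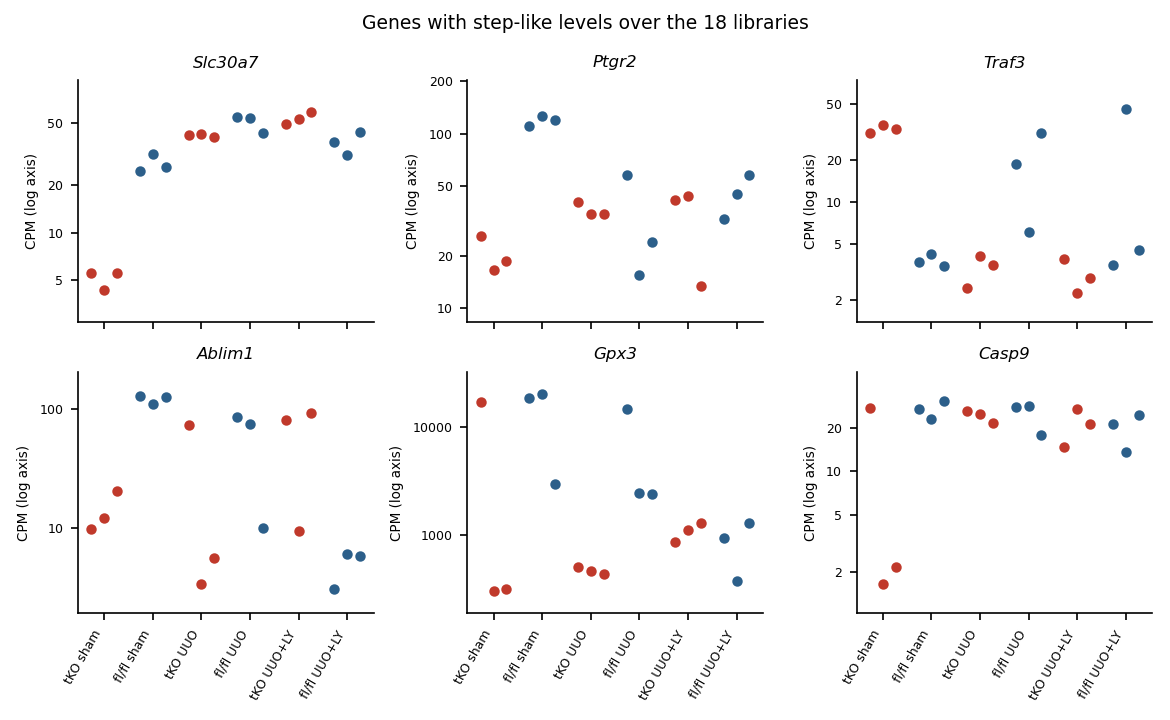
CPM on a log axis of 6 genes in all 18 libraries of the obstruction experiment, in groups of 3, with each tKO group (red) left of its fl/fl group (blue); LY stands for LY2109761. Slc30a7 is low only in the 3 tKO sham libraries, Traf3 and Ablim1 vary widely within UUO groups, and Gpx3 and Casp9 are low in tKO sham replicates 2 and 3 but not 1. Gpx3 is also low in the tKO UUO group and in both LY groups.

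Other genes separated the library labelled tKO sham replicate 1 from the other tKO libraries by such steps. Gpx3, the secreted glutathione peroxidase of the proximal tubule, had 16974, 304 and 316 CPM in tKO and 18514, 20049 and 2928 CPM in fl/fl. Its difference was −1.24 (SE 1.17, edgeR adjusted p = 0.516) with all libraries and −5.48 (edgeR adjusted p = 0.00264) without that library, but fl/fl sham replicate 3 was also low. Gpx3 varied widely elsewhere too, with 506, 465 and 435 CPM in tKO UUO and 14406, 2428 and 2375 CPM in fl/fl UUO kidneys. In the UUO libraries with LY2109761 it had 378 to 1306 CPM. Casp9, the initiator caspase of the mitochondrial pathway, had 27.3, 1.66 and 2.19 CPM in tKO and 27.1, 22.9 and 30.7 CPM in fl/fl, and its difference was −3.84 (edgeR adjusted p = 1.7e-04) without that library and −1.31 (edgeR adjusted p = 0.198) with it. In the other groups Casp9 had 13.7 to 28.2 CPM in every library.

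Some steps lay between genes that share a locus. Rab43 had 33.3, 0.726 and 0 CPM in tKO and 37.8, 37.4 and 37.5 CPM in fl/fl, while the overlapping gene model Gm45140 had 0.223, 36.1 and 23.3 CPM in tKO and 0.639, 0.0739 and 0.128 CPM in fl/fl. Zc3h11a had 26.6, 48.2 and 391 CPM in tKO and 40.5, 28.0 and 16.1 CPM in fl/fl, while Zbed6, which lies in its intron, had 213, 282 and 4.58 CPM in tKO and 212, 225 and 182 CPM in fl/fl. Gm56125, inside Ftl1, had 555, 567 and 678 CPM in tKO and 0.071, 0.0739 and 0.0642 CPM in fl/fl, that is 1 count in each fl/fl library, and it was also high in 5 of the other 12 libraries. These pairs were chosen after their values were seen, and how the authors assigned reads to overlapping genes is not given in the sources used here, so such values are uncertain as levels of either gene.

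The UUO libraries hold the same genotypes and share no library with the sham comparison, although the spread was estimated over all 18. After UUO edgeR called 3449 genes between tKO and fl/fl (17.9%), 1591 higher (8.26%) and 1858 lower (9.65%). Of the 1109 genes higher in tKO sham kidneys, 1015 (91.5%) were also above 0 in UUO, beside 53.7% of all tested genes, and 370 (33.4%) were called higher there and 3 lower. Of the 1266 genes lower in tKO sham kidneys, 1130 (89.3%) were below 0 in UUO, beside 46.3% of all genes, and 589 (46.5%) were called lower and 14 higher. The 959 genes called in the same direction made up 27.8% of the UUO calls. Across all tested genes, which are not independent, the log2 differences in sham and UUO had Pearson's r 0.42 and Spearman's rho 0.52. The median of the genes higher in sham was 0.98 in sham and 0.54 in UUO, and of those lower −0.74 in sham and −0.51 in UUO. Since these genes were chosen by their sham values, the smaller UUO medians are given without a test. The shares in UUO of counts on the mitochondrial genome, 9.88%, 10.6% and 16.2% in tKO and 7.67%, 7.43% and 7.43% in fl/fl, also lay apart by genotype.

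A direct test of the difference between the UUO and sham genotype effects called 8 genes (0.0415%) by edgeR, with 2423 at an unadjusted p under 0.05, and DESeq2 called 412. Without the library labelled tKO sham replicate 1 edgeR called 293, without tKO sham replicate 3 it called 5, and without fl/fl sham replicate 2 it called 4. With column totals it called none, with 1777 at an unadjusted p under 0.05. Slc30a7 was among the 8, with 41.7, 42.3 and 40.6 CPM in tKO UUO and 53.9, 53.1 and 43.2 CPM in fl/fl UUO kidneys (log2 difference between the effects 2.14, SE 0.22, edgeR adjusted p = 5.5e-04). Irf1, higher in tKO sham kidneys, had 16.3, 18.7 and 24.3 CPM in tKO UUO and 28.3, 25.9 and 31.2 CPM in fl/fl UUO kidneys (difference −1.94, SE 0.26, edgeR adjusted p = 0.00795). Rarres2, which encodes the chemoattractant chemerin, had 22.6, 21.2 and 20.7 CPM in tKO sham and 47.4, 43.2 and 49.9 CPM in fl/fl sham kidneys, but 56.9, 76.2 and 62.6 CPM in tKO UUO and 34.1, 34.8 and 45.1 CPM in fl/fl UUO kidneys. That gene was called in both settings in opposite directions (log2 −1.12, edgeR adjusted p = 0.00287 in sham, and 0.78, edgeR adjusted p = 0.0064 in UUO).

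**Figure D5:**
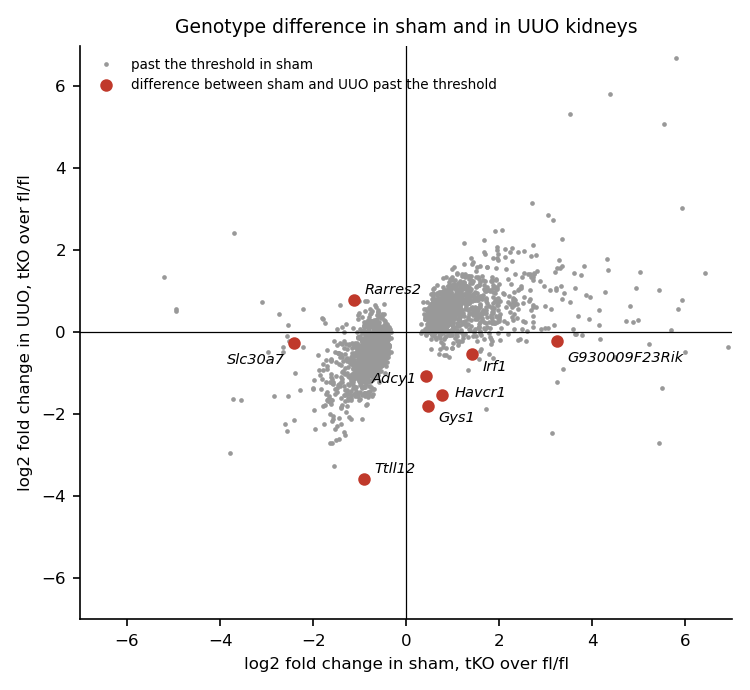
Genotype difference on the log2 scale in sham (horizontal) and UUO kidneys (vertical), tKO over fl/fl, for the 2375 genes past the threshold in sham (grey) and the 8 genes whose difference between the settings passed (red, named); 6 genes lie outside the axes. Most grey points lie at the lower left and upper right.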

How the data were processed

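Bulk RNA-seq counts of whole kidney were compared. Per the labels' protocols, TRNzol Universal Reagent served to take total RNA, and an ABclonal kit for mRNA to prepare the libraries. Per the submitters' processing notes, fastp, HISAT2 and StringTie were used, with GRCm38 and mm10 named among the builds. The sources used here give neither the counting tool, its annotation and its use of strand nor software versions. The authors deposited raw read counts per gene and FPKM values. FPKM was used for Pcmt1 only. Of 57180 genes in the deposited table, 525 had no symbol.

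From the counts, edgeR 4.0.16 (R 4.3.3) fitted 18 libraries in 6 groups of 3, with TMM scaling, filterByExpr and the quasi-likelihood test (12 residual degrees of freedom, common biological coefficient of variation 0.283). The contrast was tKO sham minus fl/fl sham, with Benjamini-Hochberg adjustment over 19256 genes and a threshold of 0.05. Higher, lower, rose and fell refer to genes past it. CPM are per TMM-scaled library, and SE is the log2 difference over the square root of F. Total counts of the 18 libraries ran from 13015669 to 19565376, and low counts limit genes of few CPM in tKO sham replicate 3 most. Replicate pairs differed by more than counting noise. The scripts were tested on simulated data.

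Alternatives were RLE and column-total scaling, no mitochondrially encoded genes, no low-count filter, the sham libraries alone, DESeq2 1.42.0, a replicate block and leaving out each library. The fits with tKO sham replicate 2 or 3 as the only tKO library were added after seeing the data. The genes named were the Pcmt1 and TGF-β pathway genes, the 12 largest increases and 12 largest decreases with a mean of at least 5 CPM and no overlap of groups (gene models named Gm or ending in Rik left out), up to 8 more in each direction without tKO sham replicate 1, and up to 4 members of each of 44 lists with the smallest p. A few others were chosen after their values were seen: Slc34a1, Lrp2, Acta2, Col3a1, Ifi208, Havcr1, Adipoq, Hba-a1, Pcmtd1, Pcmtd2, Ablim1, Rarres2, Gm45140, Zbed6 and Gm56125. Members and lists were chosen with earlier results of these data known. Gene coordinates are those of GENCODE M21 on GRCm38, matched by gene ID, and promoters are from RefSeq. Samples outside the obstruction experiment were not analysed here. One gene that the rule names is not reported here.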

Additional observations from a re-analysis of the deposited data

Results flagged for a closer look

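The genotype difference after UUO departed from that in sham kidneys in 8 genes, by an edgeR test of the difference itself, over all 19256 genes. Slc30a7 (2.14), Irf1 (−1.94) and Rarres2 (1.90, SE 0.23, edgeR adjusted p = 0.00367) are described above.

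Havcr1, the tubular injury marker KIM-1, differed by −2.29 (SE 0.38, edgeR adjusted p = 0.0452). It had 623, 441 and 444 CPM in tKO UUO and 1689, 1416 and 1223 CPM in fl/fl UUO kidneys, where it is far above its sham level in both genotypes. Gys1, glycogen synthase of muscle and other tissues, differed by −2.26 (SE 0.22, edgeR adjusted p = 3.9e-04), with 51.2, 59.1 and 52.4 CPM in tKO sham, 40.8, 41.5 and 35.2 CPM in fl/fl sham, 10.9, 7.59 and 11.0 CPM in tKO UUO and 37.3, 31.4 and 33.5 CPM in fl/fl UUO kidneys. The low values of Gys1 were thus those of the tKO UUO group.

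Ttll12 differed by −2.68 (SE 0.44, edgeR adjusted p = 0.0452), with 7, 14.8 and 15.3 CPM in tKO sham, 22.4, 22.5 and 23.7 CPM in fl/fl sham, 3.01, 2.16 and 2.82 CPM in tKO UUO and 34.6, 33.2 and 28.0 CPM in fl/fl UUO kidneys. Adcy1, an adenylyl cyclase gene, differed by −1.50 (SE 0.23, edgeR adjusted p = 0.0306), with 14.5, 14.6 and 14.1 CPM in tKO sham, 10.9, 9.38 and 11.9 CPM in fl/fl sham, 4.96, 5.26 and 6.37 CPM in tKO UUO and 11.6, 11.9 and 11.5 CPM in fl/fl UUO kidneys. The gene model G930009F23Rik differed by −3.46 (SE 0.57, edgeR adjusted p = 0.0452), with 1.04, 0.622 and 1.19 CPM in tKO sham and 0.213, 0 and 0.0642 CPM in fl/fl sham kidneys, and at least 10.6 CPM in every UUO library of both genotypes without the inhibitor.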

How the results depend on the processing

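The 2375 calls rest on the shared spread, the scaling and single libraries. With 1 library left out, genes higher ran from 275 to 1877, genes lower from 210 to 2358, and genes differing between UUO and sham from 4 to 293. Column totals gave 70 higher, 222 lower and, by edgeR, 0 differing between settings, with 1777 at an unadjusted p under 0.05, while DESeq2 gave 1665 higher and 412 differing. No low-count filter gave 593 higher. The 6 sham libraries alone gave 3 and 3, and with a replicate block 2 and 1. Without tKO sham replicate 1 and without mitochondrially encoded genes there were 1872 higher, 2319 lower and 245 differing. With tKO sham replicate 3 as the only tKO library 1957 were lower and 595 differed, and with replicate 2 as the only one 59 differed. The cause was not tested. RLE size factors (1196 higher, 1212 lower) and mitochondrially encoded genes removed (1132 and 1192) stayed within 1.5 times. The replicate numbers shared by the groups did not pair the libraries (correlations of deviations 0.01, −0.09 and −0.10), and the replicate block over 18 libraries gave 865 higher and 1117 lower.

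Pcmt1 passed with −0.94 without tKO sham replicate 1, −0.94 with mitochondrially encoded genes removed as well, −1.0 with replicate 2 as the only tKO library and −0.91 with replicate 3, and its omissions ran from −0.94 to −0.28. Of the 125 genes whose log2 difference was recomputed, the sham libraries alone lost the call of 88, column totals of 56 and leaving out tKO sham replicate 2 of 34. No gene called with all libraries changed its direction except Krt20 (−0.23 with replicate 3 as the only tKO library).

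Reversals otherwise fell on uncalled genes. With column totals they were Tgfb1 (−0.03), Tgfbr1 (−0.30), Smad2 (−0.18), mt-Rnr2 (−0.10), Slc34a1 (−0.20) and Pcmtd2 (−0.05). Over omissions of 1 library the range spanned 0 for Tgfb1 (−0.01 to 0.40), Tgfbr1 (−0.09 to 0.10), Tgfbr2 (−0.43 to 0.18), Smad2 (−0.12 to 0.47), Smad4 (−0.13 to 0.04), Smad7 (−0.24 to 0.06), mt-Rnr1 (−0.19 to 1.04), mt-Rnr2 (−0.31 to 0.91), Zbed6 (−0.91 to 0.26), Slc34a1 (−0.11 to 0.33), Pcmtd2 (−0.33 to 0.43), Adipoq (−0.59 to 3.05) and Hba-a1 (−0.14 to 1.36), and Cyp21a1 stayed at 0.00. With replicate 2 as the only tKO library they were Tgfbr1 (−0.14), Smad2 (−0.43), Smad7 (0.23), Zbed6 (0.43), Adipoq (0.43) and Hba-a1 (−0.52), and with replicate 3 Tgfb1 (−0.47), Ftl1 (−0.41), Pcmtd2 (−1.34) and Cyp21a1 (0.00). Tgfbr1 was −0.02 with no filter. Cyp21a1 (−0.03) and Adipoq (0.49, and 1.23 with the sham libraries alone) reversed with the replicate block, and Pcmtd2 (−0.16) and Adipoq (0.22) without tKO sham replicate 1 and mitochondrially encoded genes. Low counts off the mitochondrial genome in tKO sham replicate 3, 4347337 in all, limit genes of few CPM most.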
